A study of Danio rerio with 6 samples.

Results

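Ionotropic receptors are the ion channels that glutamate, GABA and glycine open directly, and their transcripts were followed here in zebrafish larvae that lack functional Dscaml1 and in wild-type siblings. The genes were chosen by symbol from a table of 31901 genes (gria, grin, grik, grid, gabr, glra and glrb), with a mean of at least 5 normalized counts over the 6 libraries. The symbols matched 56 genes and 55 of them passed that minimum, among 21302 genes that did so in the whole table. The gene left out was gabra6a, with a mean of 4.76. The 55 were 8 AMPA, 12 NMDA, 4 kainate and 3 delta receptor genes, 15 GABA-A, 5 GABA-rho and 6 glycine receptor genes, and 2 genes that match by name alone. These last, grid2ipa and grid2ipb, encode scaffold proteins that bind delta receptors, so the receptor genes proper numbered 53. Each of the 55 had a mean above the minimum in the wild-type pools too, the lowest being 8.16 for gabrr3a.

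The mutants were homozygous for vt1, a small deletion in dscaml1 that shifts the reading frame, and the controls were their wild-type siblings from heterozygous parents. Each genotype was represented by 3 pools of 6 to 11 larvae at 3.5 to 4 days post-fertilization (dpf), untreated, and the age range and the pooling were shared by both. The labels call the tissue the whole animal, while the methods state that RNA came from the front part of each larva and that the rear part served for genotyping. Markers of neurons, photoreceptors, astroglia, skeletal muscle, liver and epidermis were all detected, so the values are those of mixed tissue and not of the nervous system alone.

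AMPA, NMDA and kainate receptors are tetramers that pass cations when glutamate binds, and NMDA receptors also need glycine or D-serine, which binds GRIN1. GABA-A, GABA-rho and glycine receptors are pentamers that pass chloride, and they carry fast inhibition in the brain, the retina and the spinal cord. Delta receptors belong to the glutamate receptor family by sequence, but are best known for binding cerebellins that bridge them to presynaptic neurexins.

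The recovered reads per library were 18725190 to 20476688 in mutants (median 19617255), against 21863982 to 23516860 in wild type (median 23278471). dscaml1 itself had 336 to 399.6 normalized counts in mutant pools, against 333 to 395 in wild-type pools, and since a small deletion need not lower the transcript this checks no label. Replicate 2 of both genotypes stood apart from the other 4 libraries over many genes, so the fit held a term for it and results are also given by pair of equal number. No source used here says what the replicate numbers share. With 3 pools against 3, the smallest p of an exact two-sided permutation test of 1 gene is 0.1.

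Most receptor genes had higher normalized counts in mutant than in wild-type pools, by modest amounts. The log2 fold change, on the log2(normalized count + 1) scale, was positive for 43 of the 55 genes and negative for 12, where 50.7% of all genes tested were positive and 49.3% negative. Its median was 0.26 over the 55 genes and 0.01 over all genes tested. The largest class median belonged to the GABA-rho genes (1.03), followed by glycine (0.51), kainate (0.43), AMPA (0.31), GABA-A (0.17) and NMDA (0.16) receptor genes. Leaving out 1 library moved some of these medians by over 1.5 times. The replicate 2 term takes up a replicate 2 library left without its partner. Fits without mutant replicate 2 or without wild-type replicate 2 thus gave the fold changes of replicates 1 and 3 alone. In these fits the median was 0.43 over the 55 genes, 0.32 for GABA-A and 0.30 for NMDA genes. Without wild-type replicate 1 it was 0.21 for kainate genes, below the 0.22 of the AMPA genes, and 0.081 for NMDA genes. It was 0.092 for NMDA genes without mutant replicate 1, and 0.20 for AMPA genes without mutant replicate 3. Over the 27 glutamate receptor genes the median was 0.21, and over the 26 GABA and glycine receptor genes it was 0.32.

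With limma, over all genes tested, the adjusted p stayed above 0.05 for each of the 55, so 0 were called higher (0.0235% of all genes) and 0 lower (0.0751%). At an unadjusted p under 0.05 from limma, 14 of the 55 were higher (6.1% of all genes) and 0 were lower (7.9% of all genes). This count was 24 without mutant replicate 2 (5.67% of all genes) or without wild-type replicate 2 (5.72%), 7 without mutant replicate 3 (4.66%) and 8 without wild-type replicate 1 (4.38%). The fits with 24 share their fold changes and are not separate estimates. Without mutant replicate 1, 3 genes were lower (8.36%). The quasi-likelihood test of edgeR called 0 of the 55 in either direction (0.0188% of all genes higher and 0.0657% lower). The likelihood ratio test of DESeq2, the tool the study used, called gabrr1, grin1a and glrbb higher (0.906% of all genes) and 0 lower (1.82%). With the replicate number as a block limma called 0 (0.0469% of all genes higher and 0.174% lower), edgeR 0 (0.0563% and 0.178%) and DESeq2 3 higher and 0 lower (1.01% and 2.05%). These 3 were gabrr1, grin1a and glra4b, while glrbb was not among them (DESeq2 adjusted p = 0.0567). With no replicate 2 term DESeq2 called 1 higher and 0 lower (0.0469% and 0.113%). Every mutant pool lay above every wild-type pool in 9 genes (5.07% of all genes), and every mutant pool lay below in 0 (4.55%). Without mutant replicate 2 the 9 genes became 36 (15.3% of all genes), and without wild-type replicate 2 or wild-type replicate 3 they became 14 (12.3% and 8.06%). Without mutant replicate 1, 3 genes lay below (7.6%). In bulk RNA, more cells of a type and more RNA per cell cannot be told apart.

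**Figure D1:**
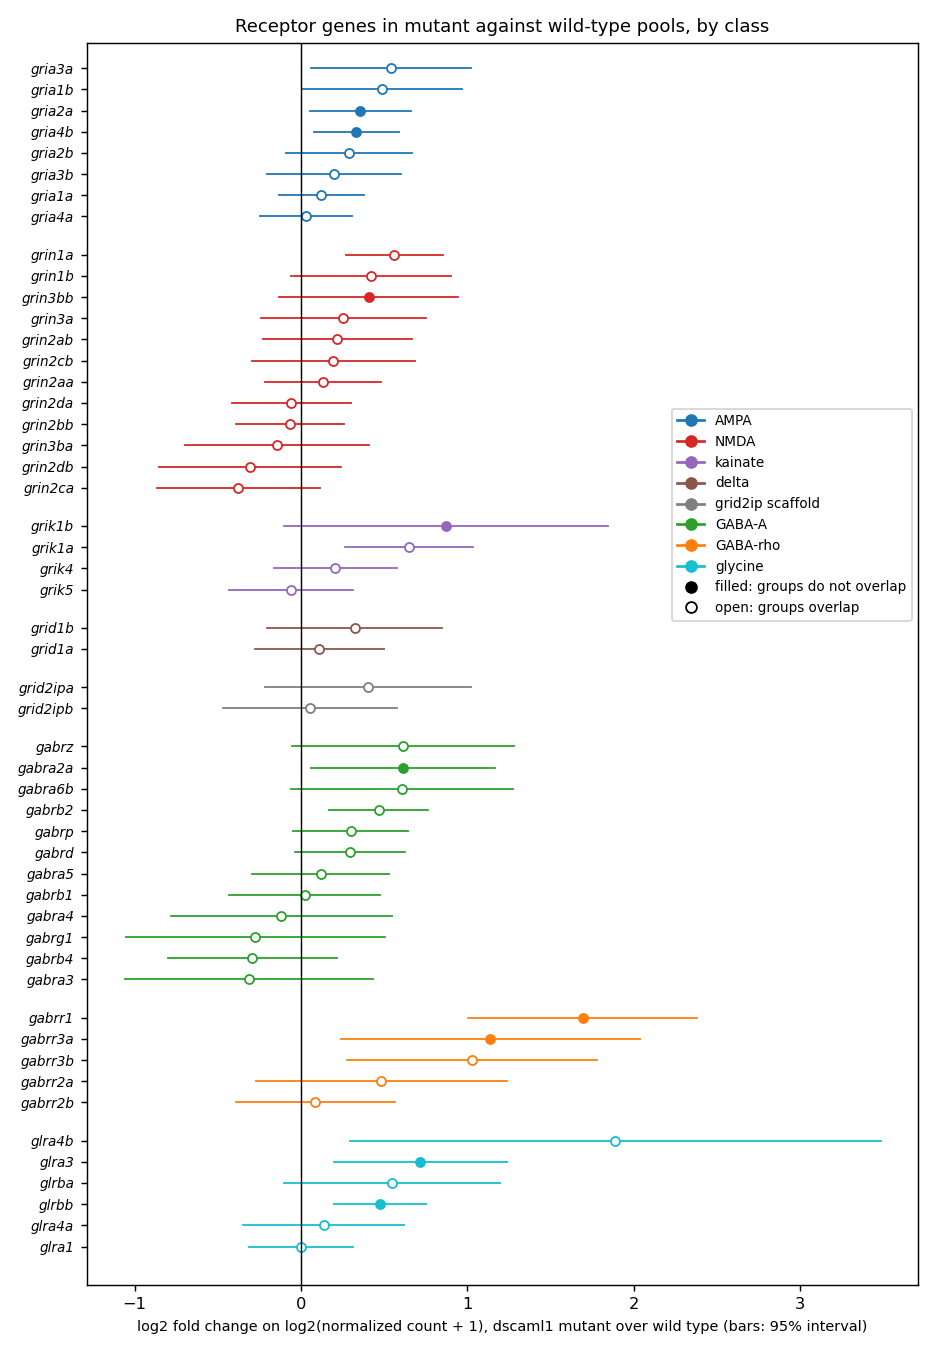
Log2 fold change of 51 of the 55 genes, dscaml1 mutant over wild type on the log2(normalized count + 1) scale (x axis), grouped and coloured by class and sorted within it (y axis), with 95% intervals from limma. Filled points mark the 9 genes in which every mutant pool lay above every wild-type pool, and glra4b, gabrr1, gabrr3a and gabrr3b lie furthest to the right.

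The GABA-rho genes had the largest class median and total ratio. Their subunits form GABA receptors that bicuculline does not block, known in mammals mainly from retinal bipolar cells. gabrr1 (ENSDARG00000043902), which encodes the rho 1 subunit and lies on chromosome 20 of GRCz11 from 1132092 to 1151265, had 62.4, 26.2 and 53.0 normalized counts in mutant replicates 1, 2 and 3, against 13.4, 13.3 and 12.4 in wild-type replicates 1, 2 and 3. The wild-type pools were close together and the mutant pools were not, replicate 2 being the lowest of them, yet all of them lay above the wild type. The mutant pools averaged 47.2 ± 18.8 and the wild-type pools 13.0 ± 0.520 (± SD, n = 3 each). The lowest library held 21 reads for gabrr1, so the small spread of its wild-type pools is imprecise. On the log2 scale the fold change was 1.69 (95% interval 1.01 to 2.38), and the limma adjusted p was 0.115. With DESeq2 the adjusted p was 0.00164, and over the 19 alternatives of all tools it ran from 0.00164 to 0.9999. The upper end, met again for other genes below, came from limma with no replicate 2 term. That fit gave 0.9999 for each of the 55 genes and called 0 of all genes tested in either direction.

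gabrr3a (ENSDARG00000027153), a rho 3 gene on chromosome 10 from 35367722 to 35410518, had 22.1, 10.2 and 30.2 normalized counts in mutant pools, against 6.97, 9.22 and 8.28 in wild-type pools (log2 fold change 1.14, limma adjusted p = 0.268). The groups did not overlap, but mutant replicate 2 was close to the highest wild-type pool. Its a/b partner gabrr3b, on chromosome 24, had 40.3, 17.9 and 58.9 in mutants, against 14.5, 11.5 and 27.2 in wild type, with a log2 fold change of 1.03 (limma adjusted p = 0.236). Mutant replicate 2 lay below wild-type replicate 3 there, so the groups overlapped although each pair had the mutant pool higher. Wild-type counts of the rho 3 genes rested on few reads (12 to 20 in the lowest library of each), which limits their precision. The rho 2 genes differed less. gabrr2a averaged 42.1 ± 14.1 normalized counts in the mutant pools and 29.3 ± 7.61 in the wild-type pools (± SD, n = 3 each), and gabrr2b averaged 49.9 ± 14.8 in the mutant pools and 45.7 ± 4.66 in the wild-type pools (log2 fold changes 0.48 and 0.09). gabrr2b is the neighbour of gabrr1 on chromosome 20, from 1158393 to 1176631.

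The glycine receptor genes came next. Alpha subunits bind the ligand, and the beta subunit ties the receptor to the scaffold protein gephyrin at inhibitory synapses of the hindbrain and spinal cord. glrbb (ENSDARG00000052769, chromosome 14 from 35691889 to 35732221), a beta subunit gene, had 918, 695 and 907 normalized counts in mutant replicates 1 to 3, against 623, 601 and 574 in the wild-type replicates. All mutant pools lay above all wild-type pools, with mutant replicate 2 nearest to them. The log2 fold change was 0.48 (95% interval 0.20 to 0.75), with an adjusted p of 0.175 from limma, 0.0476 from DESeq2 and a range of 0.0476 to 0.9999 over the alternatives. The other beta gene, glrba, had 94.9, 30.7 and 108 in mutants, against 43.0, 34.0 and 68.0 in wild type, and its groups overlapped through a low replicate 2 in both genotypes (log2 fold change 0.55, limma adjusted p = 0.432).

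Of the alpha subunit genes, glra3 and glra4b were higher in all 3 pairs and glra1 was not. glra3 (ENSDARG00000011066, chromosome 1 from 38416106 to 38538284) had 177, 110.5 and 178 normalized counts in mutants, against 74.4, 102 and 102 in wild type (log2 fold change 0.72, 95% interval 0.20 to 1.24, limma adjusted p = 0.236). Mutant replicates 1 and 3 stood well clear of the wild type, and mutant replicate 2 was only just above it. glra4b had 53.9, 23.0 and 117 in mutants, against 5.23, 11.0 and 40.2 in wild type, with an SD of the wild-type pools as large as their mean, and a log2 fold change of 1.89 with an interval of 0.29 to 3.48 (limma adjusted p = 0.290). The DESeq2 adjusted p of glra4b was 0.165, and 0.00506 with the replicate block. Its lowest library held 9 reads. glra1, the main alpha subunit of mature spinal synapses in mammals, averaged 372 ± 38.0 in the mutant pools and 373 ± 35.8 in the wild-type pools (± SD, n = 3 each), a log2 fold change of -0.0021 with an interval of -0.31 to 0.31, and its sign turned with the scaling (0.0030 with TMM factors and 0.013 with total reads). glra4a averaged 159.9 ± 12.1 in the mutant pools and 151 ± 52.6 in the wild-type pools.

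Of the 12 NMDA receptor genes, none was called by limma, and the median of the class was small. GRIN1 is the subunit every NMDA receptor contains. grin1a (ENSDARG00000027828, chromosome 21 from 11468642 to 11502971) had 2644, 1594 and 2829.9 normalized counts in mutants, against 1590.1, 1359 and 1723 in wild type. It was higher in each pair, but mutant replicate 2 lay at the level of wild-type replicate 1 and below wild-type replicate 3, so the groups overlapped. The log2 fold change was 0.56 (95% interval 0.27 to 0.85), with an adjusted p of 0.145 from limma, 0.0126 from DESeq2 and 0.0108 to 0.9999 over the alternatives. grin1b had 1528, 792 and 2027 in mutants, against 930.1, 847 and 1290.0 in wild type, with mutant replicate 2 the lowest of all 6 pools (log2 fold change 0.42, limma adjusted p = 0.412).

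GRIN2 subunits bind glutamate and set the kinetics of the channel, and in none of their 7 genes tested here did the groups separate. Their log2 fold changes ran from -0.38 for grin2ca to 0.22 for grin2ab, with 4 of the 7 negative, and their limma adjusted p from 0.474 to 0.900. grin2bb, whose subunit is the main GRIN2 partner early in mammalian development, averaged 368 ± 57.6 normalized counts in the mutant pools and 382 ± 22.3 in the wild-type pools (± SD, n = 3 each). Of the GRIN3 genes, which encode glycine-binding subunits that lower calcium entry, grin3bb had 25.3, 29.4 and 28.0 in mutants, against 23.2, 19.0 and 19.5 in wild type. These groups did not overlap, but the interval of its log2 fold change of 0.41 reached from -0.13 to 0.94 (limma adjusted p = 0.482). grin3a and grin3ba had log2 fold changes of 0.26 and -0.14.

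All 8 AMPA receptor genes had positive log2 fold changes, from 0.03 for gria4a to 0.54 for gria3a. AMPA receptors carry most fast excitation, and the GRIA2 subunit keeps calcium out of them. gria2a (chromosome 1 from 21333068 to 21409877) had 689, 541 and 697 normalized counts in mutants, against 453, 509 and 535 in wild type, and gria4b (chromosome 21 from 21894067 to 22082510) had 488, 481 and 516 in mutants, against 382, 425 and 373 in wild type. In both genes every mutant pool lay above every wild-type pool. For gria2a the nearest values were 541 and 535, while gria4b varied little among the mutant pools and its mutant replicate 2 was close to the others. Their log2 fold changes were 0.36 and 0.33 (limma adjusted p = 0.290 and 0.257).

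Differences between these genes and their a/b partners were not tested. gria2b had 868, 594 and 1138 in mutants, against 683, 639.9 and 738 in wild type (log2 fold change 0.29), and gria4a had 866, 563 and 1001 in mutants, against 828, 645 and 857 in wild type (0.03). In both, mutant replicate 2 was the lowest of the 6 pools. gria1b and gria3a had log2 fold changes of 0.49 and 0.54 (limma adjusted p = 0.350 and 0.309), and gria1a and gria3b had 0.12 and 0.20. gria1a varied little among the mutant pools, averaging 488 ± 10.1 normalized counts there and 449 ± 46.6 in the wild-type pools (± SD, n = 3 each).

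Among the kainate receptor genes, both grik1 genes were higher in mutants in all 3 pairs. grik1a had 147, 84.3 and 155 normalized counts in mutants, against 80.2, 58.2 and 105 in wild type (log2 fold change 0.65, 95% interval 0.26 to 1.03, limma adjusted p = 0.176), and its groups overlapped. grik1b, on chromosome 15 as dscaml1 is and 30.4 Mb from it, had 65.6, 56.2 and 75.8 in mutants, against 16.8, 46.1 and 55.6 in wild type. The groups of grik1b did not overlap, but the wild-type pool of replicate 1 was far below the other wild-type pools. Its log2 fold change of 0.87 (interval -0.10 to 1.85, limma adjusted p = 0.404) was 0.31 without that pool. grik4 and grik5 encode high-affinity subunits that work only with GRIK1 to GRIK3 partners. grik4 averaged 113 ± 17.2 in the mutant pools and 97.6 ± 9.03 in the wild-type pools, and grik5 averaged 137 ± 3.57 in the mutant pools and 145 ± 29.6 in the wild-type pools (± SD, n = 3 each, log2 fold changes 0.21 and -0.06).

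Among the delta receptor genes, grid1a had 127, 109 and 178 normalized counts in mutants, against 135, 109 and 133 in wild type, and its paralog grid1b had 127, 64.5 and 146 in mutants, against 74.9, 69.8 and 116 in wild type. Their log2 fold changes were 0.11 and 0.32 (limma adjusted p = 0.816 and 0.569), and the groups of both overlapped. The scaffold genes behaved like genes with a strong replicate 2 difference. grid2ipa had 103, 25.5 and 97.2 in mutants, against 50.5, 32.9 and 66.2 in wild type, and grid2ipb had 144, 52.4 and 126 in mutants, against 95.9, 79.6 and 111 in wild type, so mutant replicate 2 was the lowest pool in both (log2 fold changes 0.40 and 0.05).

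Of the 15 GABA-A receptor genes, 10 had positive and 5 had negative log2 fold changes. These receptors are built from alpha and beta subunits with a gamma, delta or other subunit. gabra2a (chromosome 13 from 12120664 to 12151350) had 46.1, 39.6 and 71.4 normalized counts in mutants, against 32.0, 31.7 and 34.9 in wild type, the only GABA-A gene whose groups did not overlap (log2 fold change 0.61, limma adjusted p = 0.313). gabrb2 had 361, 124 and 372 in mutants, against 237, 101 and 261 in wild type, with replicate 2 far below the others in both genotypes and the mutant pool higher in each pair (log2 fold change 0.47, 95% interval 0.17 to 0.77, limma adjusted p = 0.193). Of the negative ones, gabra3, gabra4, gabrb4 and gabrg1 lay between -0.31 and -0.12, with limma adjusted p from 0.594 to 0.893. The extrasynaptic subunit gene gabrd averaged 219.6 ± 73.7 in the mutant pools and 174 ± 35.5 in the wild-type pools, and was higher in mutants in each pair.

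**Figure D2:**
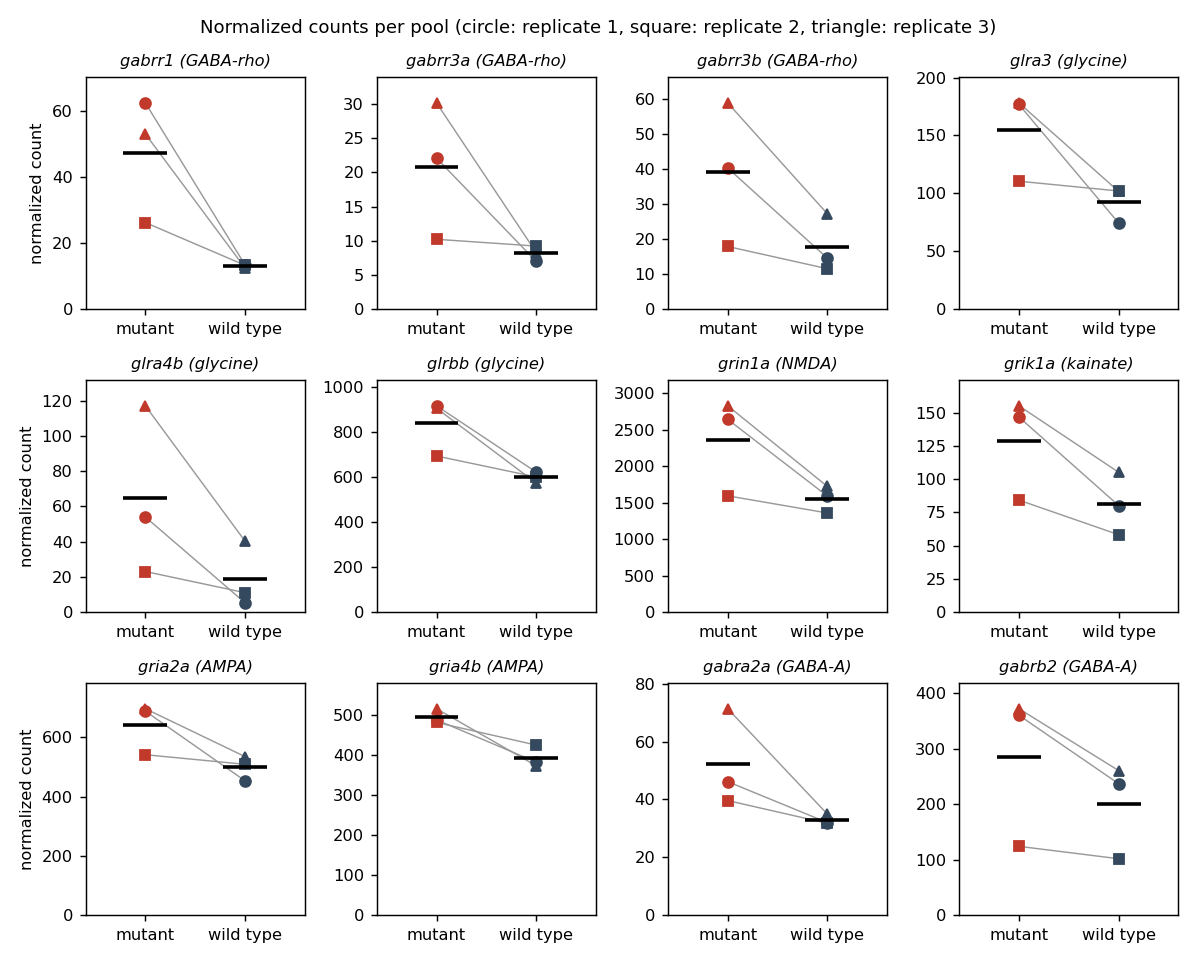
Normalized counts (y axes, each starting at 0) of 12 receptor genes in the mutant pools (left, red) and the wild-type pools (right, blue), with pools of equal replicate number joined by lines and bars at the group means. In gabrr1 the mutant pools had 62.4, 26.2 and 53.0 and the wild-type pools 13.4, 13.3 and 12.4, and the mutant square, replicate 2, was the lowest mutant pool in every panel.

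Of the genes described above, those outside the naming rule, among them gabrr3b, glra4b, glra4a, grik1a, gria1a, gria1b, gria3a, gria3b, the GRIN2 genes, grin3a, grin3ba, gabra3, gabra4 and gabrd, were chosen after their values were seen.

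The difference between genotypes depended on the pair. In the pair of replicate 1, 53 of the 55 genes had more normalized counts in the mutant pool, and in the pair of replicate 3, 46 did, against 50.4% and 51.7% of all genes tested. In the pair of replicate 2, 21 did, against 49.7% of all genes. The median log2 difference of the 55 genes was 0.51, -0.10 and 0.42 in pairs 1, 2 and 3. Higher in all 3 pairs were 19 of the 55 (34.5%, against 21.1% of all genes), and lower in all 3 were 0 (20.6% of all genes). Whether the genotype difference itself differs between replicate 2 and the other pairs was not tested.

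The class totals showed the same dependence. Summed over the NMDA genes, the mutant pools had 5666, 3399 and 6285 normalized counts, against 3783, 3465 and 4302 in the wild-type pools, ratios of 1.50, 0.98 and 1.46 in pairs 1 to 3. The AMPA total gave ratios of 1.33, 0.96 and 1.33, and the kainate total 1.46, 0.98 and 1.28. The GABA-A total gave 1.40, 0.95 and 1.24, and the glycine total 1.47, 0.98 and 1.50. Only the GABA-rho total was above even in every pair, with 231, 116 and 251 in mutants, against 102, 111 and 129 in wild type, and ratios of 2.27, 1.04 and 1.94. In pair 2 the other 5 receptor totals given here thus lay between 0.95 and 0.98 of the wild type. Mutant replicate 2 had the lowest total of the mutant pools in each of these classes, and wild-type replicate 2 had the lowest of the wild-type pools for the NMDA and GABA-A genes.

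The pair ratios of several marker lists were lowest in pair 2, as those of these totals were. The summed normalized counts of the 22 neuron markers tested, of 23 listed, were 32338 to 36719 in mutants, against 27941 to 35207 in wild type, with ratios of 1.27, 0.918 and 1.26 in pairs 1 to 3 and with nefla at 0 in all libraries. In mutants this sum was 36719, 32338 and 35188 in replicates 1 to 3, lowest in replicate 2 as the receptor totals given above were. In wild type it was 28924, 35207 and 27941, highest where the NMDA and GABA-A totals were lowest. The wild-type glycine total was also highest in replicate 2 (1228, 1373 and 1247), and the AMPA, kainate and GABA-rho totals were highest in replicate 3. Of the neuron markers 5 were higher (22.7%, beside 6.1% of all genes) and 1 was lower (7.9% of all genes) at an unadjusted p under 0.05 from limma. Their median log2 fold change was 0.10, with 15 positive, 7 negative and a lowest value of -0.45. The part of neuron content in the receptor totals was not tested.

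The 8 markers of retinal bipolar cells, the cells that in mammals carry GABA-rho receptors, summed to 1557 to 2316 normalized counts in mutants, against 608 to 1807 in wild type. Their ratios were 3.50, 0.861 and 1.87 in pairs 1 to 3, and no marker was at 0 in all libraries. Of the 8, 5 were higher (62.5%, beside 6.1% of all genes) and 0 lower (7.9% of all genes) at an unadjusted p under 0.05 from limma. Their log2 fold changes were positive in 7 and negative in 1 (-0.29). Every mutant pool lay above every wild-type pool in 1 of them (5.07% of all genes). cabp5b, a calcium-binding protein of bipolar cells, had 164, 31.3 and 124 in mutants, against 43.6, 21.3 and 58.5 in wild type, and trpm1a, the channel of ON bipolar cells, had 99.4, 67.7 and 118 in mutants, against 11.0, 47.8 and 38.4 in wild type. DESeq2 called 2 of the 8 higher (0.906% of all genes), namely these (DESeq2 adjusted p = 0.00731 and 0.0467), and both were named after their values were seen. By adjusted p, limma called 0 of the 8 higher (0.0235% of all genes) and edgeR 0 (0.0188%). The lowest adjusted p of the 8 from limma was 0.145. The 14 photoreceptor markers summed to 1863 to 6673 in mutants, against 1253 to 6762 in wild type, with ratios of 5.32, 0.276 and 1.71 in pairs 1 to 3. Of these 14, 13 had positive log2 fold changes. At an unadjusted p under 0.05 from limma, 0 were higher (6.1% of all genes) and 0 lower (7.9%), and 0 were higher in all 3 pairs (21.1%). In wild type the photoreceptor sum was 1253, 6762 and 3011 in replicates 1 to 3, beside GABA-rho totals of 102, 111 and 129. The ratios of both retinal sums had the same order of pairs as the GABA-rho total, the first pair being the highest and the second the lowest. The neuron markers and the NMDA, kainate and GABA-A totals had that order too. In pair 2 the retinal lists were at 0.861 and 0.276, and the GABA-rho total at 1.04. The part of retinal cells in the GABA-rho values was not tested.

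The other marker lists had pair 2 lowest too, except the epidermal one. The 7 astroglial markers gave ratios of 1.21, 1.06 and 1.70, the 10 skeletal muscle markers 1.06, 0.629 and 1.10, and the 9 oligodendrocyte markers 1.005, 0.979 and 1.01. The 6 epidermal markers gave 0.741, 1.16 and 0.696, with pair 2 the highest. The 10 hepatocyte markers summed to 18952 to 37962 in mutants, against 42645 to 62426 in wild type. Of these 10, limma called 4 lower (0.0751% of all genes) and 0 higher (0.0235%), with 0.05 as the limit for its adjusted p. Since normalized counts are relative to the library, a change in neural or liver transcripts and a change in the makeup of the tissue cannot be told apart.

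**Figure D3:**
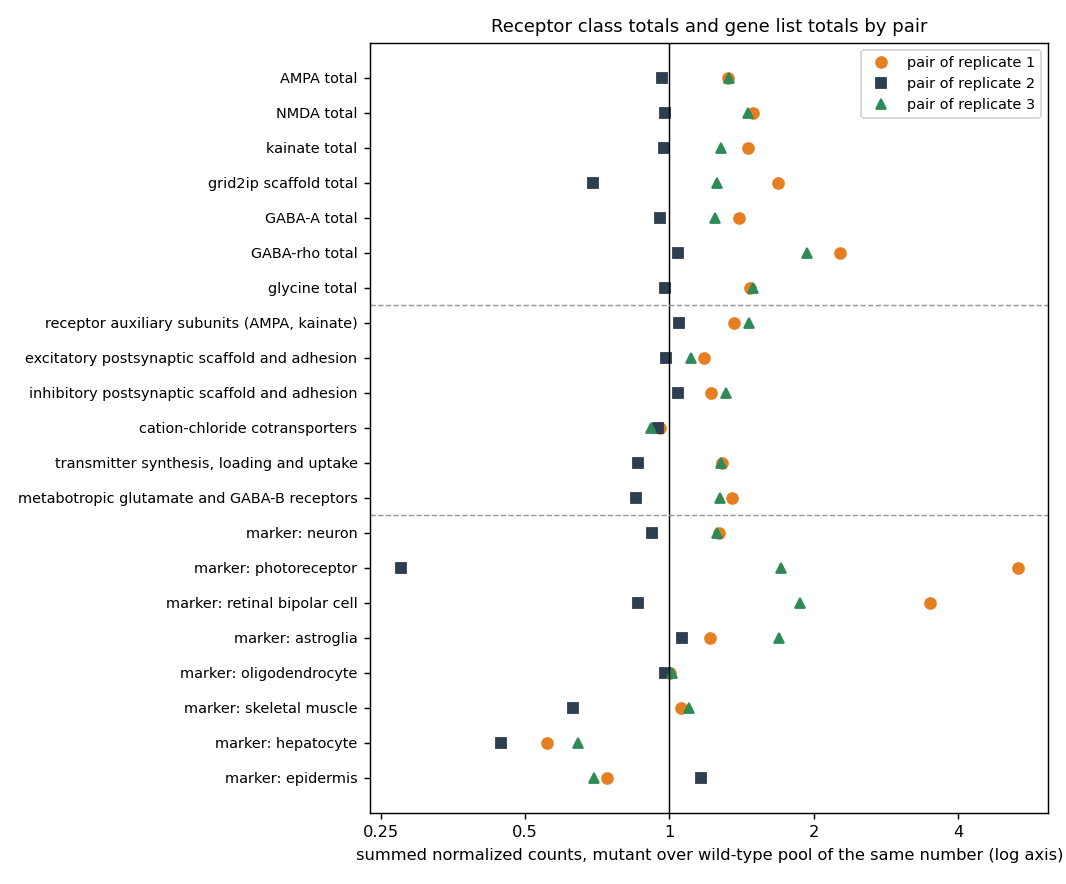
Summed normalized counts of 6 receptor classes, the scaffold genes and each partner list and cell type marker list, mutant pool over wild-type pool of the same replicate number (x axis, log scale), for the 3 pairs. The receptor totals of pairs 1 and 3 lie between 1.24 and 2.27, and those of pair 2 between 0.95 and 1.04, with the delta-binding scaffold genes at 0.69.

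Shares within a class, which do not change with a factor common to all its genes, were compared between pools. Shares are of normalized counts and long transcripts weigh more, so they rank no subunit against another. Within the NMDA class, grin1a held 46.7, 46.9 and 45.0 percent in mutants, against 42.0, 39.2 and 40.0 percent in wild type, so every mutant pool lay above every wild-type pool, replicate 2 included. That order over the NMDA total was met by 0.413% of all genes tested. The class totals used here were higher in the mutant pools of pairs 1 and 3, so other genes divided by them tend to come out lower. Members are part of their own total, so these percentages give no chance rate for them. grin2aa and grin2ca had lower shares without overlap (10.3% of all genes). grin2ca held 1.50, 1.05 and 1.17 percent in mutants, against 2.24, 1.96 and 2.01 percent in wild type.

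Within the GABA-rho class, gabrr1 held 27.0, 22.7 and 21.1 percent in mutants, against 13.1, 12.0 and 9.59 percent in wild type. gabrr3a held 9.58, 8.84 and 12.0 percent in mutants, against 6.86, 8.33 and 6.39 percent in wild type, and both were higher without overlap (0.0986% of all genes over the GABA-rho total). gabrr2b held 22.3, 29.8 and 25.5 percent in mutants, against 45.1, 37.0 and 38.8 percent in wild type, lower without overlap (22.1% of all genes). Within the glycine class glra3 had the higher shares, 9.80, 8.24 and 9.55 percent in mutants, against 6.06, 7.43 and 8.16 percent in wild type (0.422% of all genes). glra1 had the lower ones, 22.5, 24.7 and 20.4 percent in mutants, against 28.7, 30.2 and 28.2 percent in wild type (16.5% of all genes). In the AMPA, kainate and GABA-A classes 0 genes had shares without overlap, where all genes gave 0.789% higher and 10.3% lower over the AMPA total, 0.587% and 12.1% over the kainate total and 0.836% and 7.68% over the GABA-A total. These orders are descriptions, since the shares of a class are tied to each other and rest on the same libraries as the fold changes. The percentages of all genes over a class total again give no chance rate for its members.

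**Figure D4:**
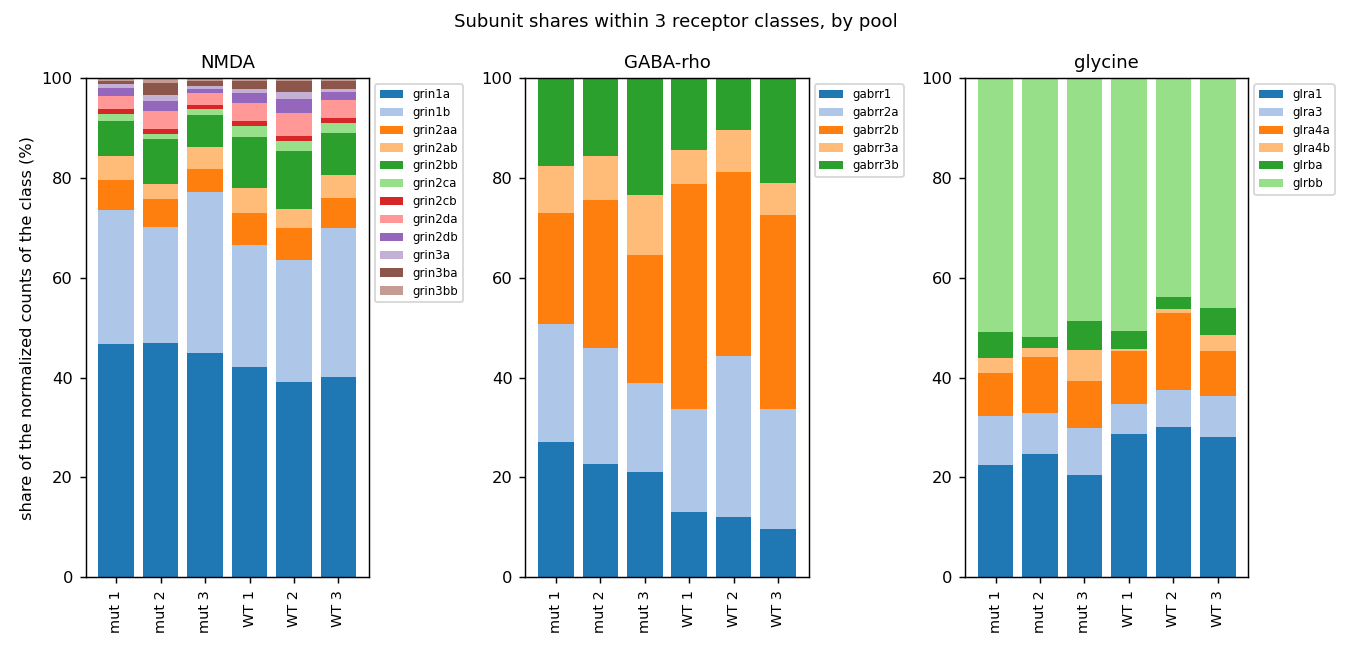
Share of each gene in the summed normalized counts of its class (y axis, percent) in the 3 mutant pools (mut 1 to 3) and the 3 wild-type pools (WT 1 to 3), for NMDA, GABA-rho and glycine receptor genes. The lowest segments show grin1a at 45.0 to 46.9 percent in mutants and 39.2 to 42.0 in wild type, gabrr1 at 21.1 to 27.0 and 9.59 to 13.1, and glra1 at 20.4 to 24.7 and 28.2 to 30.2.

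For many receptor genes the difference between replicate 2 and the other pools was as large as that between genotypes. Both replicate 2 pools lay below the other 4 libraries in 19 of the 55 genes (26.1% of all genes tested) and above them in 5 (24.6%). The replicate 2 coefficient, the log2 difference of replicate 2 from replicates 1 and 3 over both genotypes, had a median of -0.38 over the 55 genes. The most negative values were -1.42 for gabrb2, -1.41 for gabrz, a GABA-A gene annotated as zeta, and -1.37 for gabra6b, known in mammals from cerebellar granule cells. gabrz had 146, 49.2 and 219 normalized counts in mutants, against 72.6, 47.8 and 124 in wild type, and gabra6b had 48.1, 13.4 and 28.0 in mutants, against 26.7, 8.65 and 20.7 in wild type. In both genes, and in gabrb2, replicate 2 of either genotype was lower than every other pool.

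The reverse pattern was found in gabrp, gabrb4 and gabrg1, with coefficients of 0.80, 0.77 and 0.73. gabrp encodes the pi subunit, which in mammals is found mostly outside the nervous system, and had 115, 223 and 146 normalized counts in mutants, against 101, 186 and 108 in wild type. gabrb4 had 65.0, 88.1 and 39.0 in mutants, against 60.4, 106 and 65.0 in wild type, and gabrg1 had 35.7, 42.1 and 14.7 in mutants, against 33.7, 46.1 and 26.0 in wild type. gria1a and grin3ba were the other 2 genes with both replicate 2 pools above the rest. In these 5 genes replicate 2 was the highest pool of each genotype, though in gria1a mutant replicate 2 was barely above mutant replicate 3 (495 and 492). The genotype difference was smaller in size than the replicate 2 coefficient, except that the 2 were close in gria1a, with 0.13 beside a log2 fold change of 0.12 (log2 fold changes of the 5 from -0.29 for gabrb4 to 0.30 for gabrp). gabrr1 had a coefficient of -0.53 beside a log2 fold change of 1.69, so its genotype difference was the larger.

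**Figure D5:**
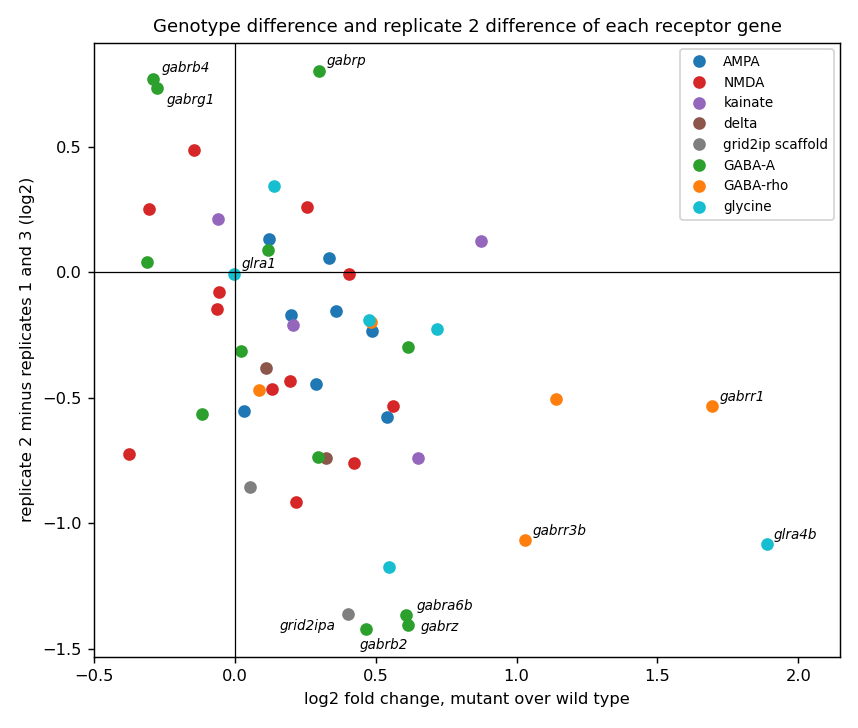
Replicate 2 coefficient (y axis, log2, replicate 2 minus replicates 1 and 3) against the genotype log2 fold change, mutant over wild type (x axis), for 51 of the 55 genes, coloured by class. Most points lie right of 0 and below 0, with gabrb2, gabrz and gabra6b lowest at -1.42 to -1.37, gabrp, gabrb4 and gabrg1 highest at 0.73 to 0.80, and gabrr1 and glra4b furthest right.

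Many receptor genes exist as a/b copies from the genome duplication of teleost fish, and the ratio of the a copy to the b copy was taken in 16 pairs. It was lower in the mutant pool of all 3 replicate pairs in 5 of them (glra4, gria1, gria4, grin2c and grin3b), higher in 3 (gria3, grid2ip and grin1) and mixed in the rest. Only for grin2c did the groups not overlap, with 1.49, 1.12 and 1.43 in mutants, against 2.09, 1.82 and 2.12 in wild type. Such ratios were not taken over other genes, so these counts have no share beside them. They are description, and whether they exceed chance was not tested. The pairs described were chosen after their values were seen. For glra4 the ratio of the a copy to the b copy was 2.87, 6.58 and 1.48 in mutant replicates 1 to 3, against 24.8, 19.2 and 2.78 in the wild-type replicates. It was lower in the mutant pool of each pair. glra4b was higher in the mutant pool of each pair, with 9 reads in its lowest library. glra4a had close group means, but its mutant over wild-type ratios were 1.19, 0.719 and 1.55 in pairs 1 to 3. The ratio of gria4a to gria4b was 1.77, 1.17 and 1.94 in mutants, against 2.17, 1.52 and 2.30 in wild type, again lower in the mutant pool of each pair. grin1a over grin1b was 1.73, 2.01 and 1.40 in mutants, against 1.71, 1.60 and 1.34 in wild type, higher in each pair but with overlap. How reads that match both copies were counted is not stated, so the ratios are less certain for the most similar copies.

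The genes of receptor partners were compared in the same fit, list by list. Auxiliary subunits escort AMPA and kainate receptors to the membrane. Of the 21 of their genes tested, of 22 found under the 22 symbols listed, 20 had positive log2 fold changes, with a median of 0.34. limma called 0 of them at an adjusted p of 0.05, with 7 higher (33.3%, beside 6.1% of all genes) and 0 lower at an unadjusted p under 0.05, and DESeq2 and edgeR called 0. The symbol neto2b was held by separate entries, with log2 fold changes of 1.67 and 0.09, named after their values were seen. The first had a mean of 4.47 normalized counts in wild type, under the minimum of 5, and of 19.6 in mutants. An entry with that wild-type mean could pass the minimum only by being higher in mutants, yet it is counted among the 20 and the 7. The second, with 319 in wild type, was among the 20 and not among the 7. cacng7b, a TARP gene, had 73.4, 31.3 and 106 normalized counts in mutants, against 37.2, 21.3 and 45.5 in wild type (log2 fold change 0.90, limma adjusted p = 0.178). It was higher in each pair, with overlap between the groups.

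The 36 excitatory scaffold and adhesion genes tested, of 37 found under the 41 symbols listed, had a median log2 fold change of 0.06. Of these, 3 were higher and 0 lower at an unadjusted p under 0.05, and 0 were called by limma. The lowest p was that of cbln1, cerebellin 1, which links delta receptors to neurexins. It had 637, 815 and 671 normalized counts in mutants, against 493, 549 and 407 in wild type, with no overlap and with replicate 2 the highest pool in each genotype. Its log2 fold change was 0.55, with an adjusted p of 0.133 from limma, 0.0120 from DESeq2 and 0.0120 to 0.9999 over the alternatives. The 3 genes higher at that unadjusted p were 8.33% of the list, beside 6.1% of all genes. The others were cbln4 (0.56) and cbln2a (0.71), cerebellin genes too, which were named after their values were seen.

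Of the 20 inhibitory scaffold and adhesion genes tested, of 21 listed, the median log2 fold change was 0.21. At an unadjusted p under 0.05 from limma, 3 were higher (15%, beside 6.1% of all genes) and 0 lower (7.9% of all genes). By adjusted p, limma, edgeR and DESeq2 called 0. gabarapb, a GABA-A receptor trafficking protein gene, had 3056, 2978 and 3772 normalized counts in mutants, against 2592, 2559 and 2566 in wild type (log2 fold change 0.34, limma adjusted p = 0.253), without overlap. gphnb, a gene for gephyrin, the anchor of GABA-A and glycine receptors, had 369.7, 312 and 369 in mutants, against 249.8, 296 and 253 in wild type, also without overlap (log2 fold change 0.39, named after its values were seen). The 6 cation-chloride cotransporter genes tested, of 7 listed, which set the chloride gradient on which these receptors act, had a median of -0.02. At an unadjusted p under 0.05 from limma, 0 were higher (6.1% of all genes) and 1 was lower (7.9% of all genes). The lowest p in that list was that of slc12a7b, with 1559, 731 and 1476 in mutants, against 2012, 1054 and 1552 in wild type (log2 fold change -0.32, limma adjusted p = 0.332).

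The 22 genes tested, of 23 listed, for transmitter synthesis, vesicle loading and uptake had a median log2 fold change of 0.07. At an unadjusted p under 0.05 from limma, 4 were higher (18.2%, beside 6.1% of all genes) and 0 lower (7.9% of all genes). By adjusted p, limma, edgeR and DESeq2 called 0. slc17a6b, a vesicular glutamate transporter gene, had 1224, 831 and 1179 normalized counts in mutants, against 788, 749 and 883 in wild type (log2 fold change 0.40, limma adjusted p = 0.217). The other 3 were gad1b, gad2 and slc32a1, genes of GABA synthesis and loading, with log2 fold changes of 0.47, 0.34 and 0.40, named after their values were seen. Among the 15 metabotropic receptor genes tested, of 16 listed, the median was 0.16. At an unadjusted p under 0.05 from limma, 2 were higher (13.3%, beside 6.1% of all genes) and 1 was lower (7.9% of all genes). The lower one was gabbr1a, a GABA-B receptor gene, with 24.7, 13.4 and 28.0 in mutants, against 40.1, 49.6 and 49.1 in wild type. Every mutant pool lay below every wild-type pool, a log2 fold change of -1.09 (limma adjusted p = 0.177, 0.0708 to 0.9999 over the alternatives of all tools).

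Several receptor genes are neighbours in the genome, and neighbours did not always move alike. gabra2a, gabrg1 and gabrb1 lie together on chromosome 13, with log2 fold changes of 0.61, -0.28 and 0.02. gria2a neighbours glrba on chromosome 1 (0.36 and 0.55), and gria2b neighbours glrbb on chromosome 14 (0.29 and 0.48), 2 copies of 1 ancestral pair. On chromosome 15, which carries dscaml1, grik4, grik1b and gria4a lie 10.5, 30.4 and 32.3 Mb from it, with log2 fold changes of 0.21, 0.87 and 0.03.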

How the data were processed

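RNA-seq libraries of 3 dscaml1 mutant and 3 wild-type pools were compared, grouped by the genotype in the labels. The deposited signal values are the counts of each gene over a size factor of its library, computed by the authors. The submitters' processing notes name TopHat2, HISAT2, HTSeq and GRCz11. The sources used here do not give their versions, their roles or any use of strand in counting. The fold changes, p-values and other statistics in the deposited tables are the authors' own comparisons and were not used. Division by the value of 1 read gave whole reads in 100% of cases, to within 0.001 reads, and the number of unmapped sample columns was 0. Libraries of the same genotype all differed beyond sampling noise (chi-square of 22.1 to 142 for each degree of freedom).

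The test was limma 3.58.1 (R 4.3.3) with its mean-variance trend, on values taken as log2(value + 1), a scale that understates the change of low genes, over 21302 genes with a mean of at least 5, with terms for genotype and for replicate 2, and Benjamini-Hochberg adjustment. Residual degrees of freedom were 3, and the prior ones had a median of 4.65. Counts of genes used an adjusted p under 0.05. With limma, no receptor gene and no other gene passed 0.01 with a 2-fold change, the thresholds of the study. The study used another test, the likelihood ratio test of DESeq2, and reported genes in both directions at these thresholds. With DESeq2 as fitted here, gabrr1 passed these thresholds (log2 fold change 1.78, DESeq2 adjusted p = 0.00164). With the replicate block in DESeq2, gabrr1 (1.77, DESeq2 adjusted p = 0.00622) and glra4b (1.91, DESeq2 adjusted p = 0.00506) passed them. The recovered reads were tested with edgeR 4.0.16 and DESeq2 1.42.0, on whose undefined adjusted p no call was made. Deviations from the genotype means correlated at 0.651, 0.856 and 0.699 between libraries of the same replicate number and were highest there. They correlated at 0.500 for mutant 1 with wild type 3, at 0.346 for mutant 3 with wild type 1, and negatively for replicate 2 with other numbers. Such deviations sum to 0 within a genotype, so the replicate 2 difference alone raises the values among replicates 1 and 3. Pairing within replicates 1 and 3 thus rests on 0.651 and 0.699 against 0.500 and 0.346, and no label says what the numbers share. A replicate block was fitted as an alternative.

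Genes were named in the text if called by limma, if their groups did not overlap, if among the 2 highest means of a class or an a/b partner of these, if among the 3 lowest p or the 3 extreme replicate 2 coefficients in each direction, or if first by p in a partner list. The receptor genes, the partner and marker lists and the replicate 2 term were chosen with earlier results of these data known. Nothing states that the pools came from separate clutches, so the p-values cover only pool-to-pool spread. For 4 of the receptor genes no single-gene result is reported here. All 55 identifiers matched the reference list of names, 30 of them under the same symbol. The fits were tested on simulated data. Other steps used Python 3.11.15, pandas 2.3.3 and matplotlib 3.10.9. Coordinates are those of the deposited table.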

Additional observations from a re-analysis of the deposited data

How the results depend on the processing

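Over 19 alternatives the number of receptor genes called at an adjusted p of 0.05 stayed at 0 in both directions, except with DESeq2, which called 3 higher on the recovered reads, 3 with the replicate block and 1 with no replicate 2 term. With the block, glra4b took the place of glrbb among the 3. The replicate block changed no call of limma or edgeR (0 receptor genes each), and the block and the DESeq2 fit with no replicate 2 term on recovered reads were chosen after seeing the data. DESeq2 on the recovered reads also called 1 of the 36 excitatory partner genes, cbln1, higher (0.906% of all genes). The count at an unadjusted p under 0.05 (14 higher, 0 lower) was 7 higher with DESeq2 and no replicate 2 term (1.83% of all genes, beside 6.1% in the main fit). It was 5 with limma and no such term (1.79%) and 24 in replicates 1 and 3 alone (5.67%). With each library left out in turn it ranged from 7 to 24 higher (3.75% to 6.05% of all genes) and from 0 to 3 lower (5.22% to 8.36%). Leaving out either replicate 2 library gave the fold changes of replicates 1 and 3 alone, so these alternatives are not separate estimates. The 9 genes without overlap (5.07% of all genes) became 43 in replicates 1 and 3 alone (22.8%) and ranged from 9 to 36 with a library left out (7.1% to 15.3%). The 0 lower ones then ranged from 0 to 3 (6.86% to 14% of all genes). Of 35 named genes, 7 changed sign in at least 1 setting, with main log2 fold changes of -0.28 to 0.11. glra1 was 0.0030 with TMM factors, 0.0034 with edgeR, 0.0026 with edgeR and the replicate block, 0.013 with total reads and 0.16 in replicates 1 and 3 alone, and grik5 was 0.12 in the last. With a library left out, log2 fold changes ranged from -0.074 to 0.16 for glra1, -0.14 to 0.12 for grik5, -0.061 to 0.14 for gria4a, -0.043 to 0.23 for grid1a, -0.099 to 0.38 for grid2ipb, -0.049 to 0.25 for gabrr2b and -0.60 to 0.096 for gabrg1. The causes were not tested. Scaling moved the median of all genes by at most 0.02. Depth limited glra4b, gabrr3a, gabra6b, gabrg1 and gabrr3b most, with 9 to 20 reads in the lowest library of each.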
